A study of Mus musculus with 4 samples.

Results

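Genes of class II and CD1d antigen presentation were followed through RNA-seq libraries of NKT cells sorted from the small intestinal lamina propria (SI-LP). They were the rows named *H2-Aa*, *H2-Ab1*, *H2-Eb1*, *H2-DMa*, *H2-DMb1*, *Cd74*, *Ciita* and *Cd1d1*, which make 8 of the 25239 genes in the count table, and each was read in all 4 libraries. NKT cells are T cells whose receptors see lipids on CD1d. The libraries came from unmanipulated WT C57BL/6Jax mice, so all 4 share the same condition and no treated or mutant group is set against them. The labels mark replicates 3 and 4 as First and replicates 1 and 2 as Second, which is read here as 2 experiments. The study as a whole used young adult mice of both sexes. Mice for sorting of intestinal NKT cells received an anti-ARTC2 nanobody, which protects T cells of the gut during isolation, shortly before the tissue was taken. The labels do not say whether one library is one mouse. Cells were sorted as live TCRβ+ cells that bound CD1d tetramers loaded with PBS57, after removal of cells bearing B220, CD11b, CD11c or CD8. The described gate thus excludes most B cells, macrophages and dendritic cells, the usual carriers of class II. Apart from requiring TCRβ and tetramer binding, it names no marker against epithelial cells. Lymphoid NKT cells are not analysed here.

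Class II molecules are heterodimers that show peptides to CD4+ T cells. The α chain and β chain pair with the invariant chain, encoded by *Cd74*, which blocks the groove and guides the complex to endosomes. There *H2-DMa* and *H2-DMb1* encode the DM dimer that helps to exchange the last invariant chain fragment for peptide. Transcription of all these genes depends on CIITA, a coactivator that IFN-γ induces in many cells and that docks on RFX, CREB and NF-Y factors bound to paired promoter elements, the X box and the Y box. CD1d is a class I-like molecule that shows lipids to NKT cells. B cells, dendritic cells and macrophages carry class II at rest, the small intestinal epithelium does so in part, and mouse T cells are known for making little or none.

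The promoter sequences are shown because the class II genes share a pair of elements that the rule of choice did not use. RefSeq windows (GRCm38.p6) of 300 bases, from 250 before to 50 after the start of a transcript, were at hand for 4 of the 8 genes. The pair searched for was GNAAC, the core of the X box, and GATTGG, which holds the Y box, 20 to 30 bases downstream on the same strand, and both strands of each window were searched. These letters and limits were settled after the class II promoters had been read. Capitals mark the 2 elements, and each stretch is written 5′ to 3′ in the direction of transcription. *H2-Aa* (chr17:34287855-34287916, minus strand), *H2-Eb1* (chr17:34305764-34305824, plus strand) and *H2-DMb1* (chr17:34153085-34153146, plus strand) hold it 81, 91 and 94 bases before the start, and the related gene *H2-Ob* (chr17:34238806-34238864, plus strand) is set beside them.
H2-Aa: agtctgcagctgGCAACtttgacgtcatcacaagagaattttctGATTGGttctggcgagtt
H2-Eb1: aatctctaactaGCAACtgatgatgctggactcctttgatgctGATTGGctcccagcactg
H2-DMb1: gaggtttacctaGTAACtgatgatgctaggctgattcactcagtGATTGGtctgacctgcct
H2-Ob: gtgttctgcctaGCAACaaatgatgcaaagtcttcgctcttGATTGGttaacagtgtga

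The elements lie 27, 26, 27 and 24 bases apart in the 4 stretches. The pair was found in 3 of the 4 members with a window, and in 0.651% of all 32851 windows, whereas GATTGG alone was found in 16.1%. The spaced pair was not found in either window of *H2-DMa*, although the window that starts at chr17:34125268 holds GATTGG. Among related class II genes, 3 of the 4 with a window hold it. As the values below show, genes that carry the same pair did not have the same level or the same order of libraries.

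Total counts per library ran from 3882803 to 8732858, and the ribosomal RNA precursor *Rn45s* took 7.36% to 28.1% of them, most in the libraries of the first experiment. Counts were scaled to a common library size with edgeR's TMM factors and are given as CPM, in which 3 counts, the limit up to which a level was not read as signal, correspond to 0.292 to 0.745 CPM, which covers counting error only. Levels of different genes are compared in TPM, the like unit corrected for gene length. The T cell part of the label was checked with 7 T cell markers, all above 3 counts in every library. Their summed level was 2567, 981, 3294 and 1227.5 CPM in replicates 1 to 4. These genes mark T cells in general, so the NKT part of the label was not checked. The plasma cell sum given below exceeded that of the T cell markers in replicates 1 and 2. The epithelial markers ran from 296 to 29525 CPM, and replicates 2 and 4 stood above replicates 1 and 3. With 8908 and 29525 CPM in replicates 2 and 4, they also exceeded the T cell sum there. In replicate 4 the Paneth cell gene *Lyz1* alone had 20926 CPM, beside 344 CPM in replicate 2.

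The chains of the I-A molecule, the one class II molecule that C57BL/6 mice display, were measured in every library. *H2-Aa*, which encodes the α chain (chromosome 17, 34282744 to 34287823, GRCm38), had 428, 956, 126 and 310 counts in replicates 1 to 4, or 60.2, 93.1, 27.6 and 77.0 CPM. *H2-Ab1*, the β chain (chromosome 17, 34263227 to 34269418), had 78.2, 44.2, 17.1 and 44.2 CPM. Replicate 3 was the lowest library for both chains, and the highest library differed, replicate 2 for the α chain and replicate 1 for the β chain. The mean levels were 64.4 ± 28.0 and 45.9 ± 25.02 CPM (SD, n = 4). In bulk RNA, fewer cells that express a gene and less RNA of it per cell cannot be told apart, which holds for all levels here.

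*H2-Eb1* encodes the β chain of the I-E molecule (chromosome 17, 34305867 to 34316674) and had 16.0, 4.77, 8.75 and 62.1 CPM in replicates 1 to 4. Replicate 4 was the highest and replicate 2 the lowest, a span of 13.0-fold that neither I-A chain showed. Its mean of 22.9 ± 26.5 CPM rests on replicate 4, and without that library it was 9.85 CPM. Its partner, the I-E α chain gene *H2-Ea*, is a pseudogene in this strain by the RefSeq record, and it had 0 counts in all 4 libraries, which allows at most 0.745 CPM in the shallowest. The other class II paralogs had few counts. *H2-Eb2* had 24 counts in replicate 1 and at most 3 in the others, *H2-Ob* had 5 counts in replicate 3 and 0 elsewhere, and *H2-Oa*, which with *H2-Ob* encodes the DO dimer that restrains DM in B cells, had 8 counts at most.

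*Cd74* was the most abundant of the 8 genes in every library. The invariant chain gene (chromosome 18, 60803849 to 60812652) had 3530, 4240, 163 and 1100 counts in replicates 1 to 4, which gives 496, 413, 35.7 and 273 CPM. Replicate 3 lay far below the others, 13.9-fold under replicate 1 and well under replicate 4 of its own experiment. Its mean was 304 ± 201 CPM and 617 ± 437 TPM (SD, n = 4), which placed it at percentile 98.2 of the 11689 genes tested. The microRNA gene *Mir5107* shares exon bases with it, and no other member shares exon bases with another gene.

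The DM genes were unequal. *H2-DMa* (chromosome 17, 34122832 to 34139101) had 6.19, 30.2, 10.7 and 20.4 CPM in replicates 1 to 4, so that replicates 2 and 4 were above replicates 1 and 3. *H2-DMb1* (chromosome 17, 34153191 to 34160229) had only 2, 10, 9 and 12 counts, and in replicate 1 it was under the floor. Per length, *H2-DMa* had 21.7 ± 15.1 TPM and *H2-DMb1* 3.15 ± 2.20 TPM. *H2-DMb2*, the neighbouring β chain gene, had 0, 19, 12 and 2 counts. The 2 β chain genes are close paralogs, and reads that fit both could have been counted for either, so their separate levels are uncertain.

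*Ciita* (chromosome 16, 10480072 to 10527640) was detected in each library and was low in each. Its 29, 45, 6 and 14 counts amounted to 4.08, 4.38, 1.31 and 3.48 CPM, and its mean of 1.56 ± 0.744 TPM was the lowest of the 8 genes, at percentile 2.4. Replicate 3 was again the lowest library. All 13 genes listed for class II transcription, the CIITA partners and the IFN-γ pathway that induces it, had more than 3 counts in every library. *Rfx5*, the DNA-binding RFX subunit, had 64.2, 11.7, 55.3 and 52.6 CPM in replicates 1 to 4, and *Rfxap* and *Rfxank*, the other RFX subunits, had 0.984 to 18.2 and 8.72 to 33.3 CPM. The NF-Y subunits *Nfya*, *Nfyb* and *Nfyc* had means of 54.0, 29.7 and 28.9 CPM. *Ifngr1*, the ligand-binding chain of the IFN-γ receptor, had 534, 338, 850 and 308 CPM, with replicates 1 and 3 above replicates 2 and 4, as for the T cell markers. *Ifngr2*, the signaling chain, went the other way with 5.34, 30.2, 4.59 and 55.1 CPM.

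*Cd1d1*, the gene for the CD1d molecule itself (chromosome 3, 86995836 to 86999340), was present in 2 libraries and absent from the counts of the others. It had 0, 109, 28 and 0 counts in replicates 1 to 4, which gives 10.6 CPM in replicate 2 and 6.12 CPM in replicate 3. Replicate 2 was thus at least 25.2-fold higher than replicate 1, and replicate 3 at least 8.22-fold higher than replicate 4, taking 3 counts as the limit of each library at 0. The libraries with *Cd1d1* were one from each experiment, and replicate 3, with 28 counts, was the library in which 4 of the other members were lowest. Its mean of 4.18 ± 5.17 CPM was 2.04 CPM without replicate 2. The adjacent paralog *Cd1d2*, a transcribed pseudogene in RefSeq, had 10 counts in replicate 2 and 0 in the others, and primary alignments of reads shared by both genes could fall on either. Of the genes that load or traffic lipids for CD1d, the other 7 listed had more than 3 counts in each library. *Psap*, the saposin precursor, had 261, 80.1, 246 and 182 CPM in replicates 1 to 4, and *Ap3b1*, an adaptor subunit for lysosomal sorting, had 116 to 268 CPM. *Mttp*, a lipid transfer protein also abundant in enterocytes, had 36.6, 80.2, 9.62 and 149 CPM, with the same order of libraries as the summed epithelial markers.

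**Figure D1:**
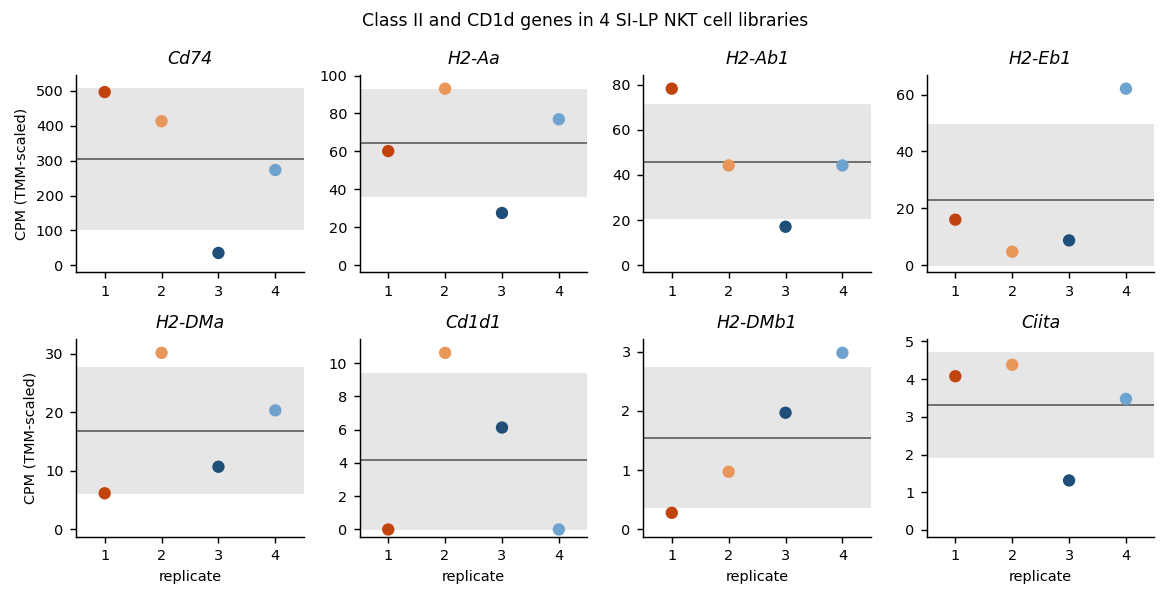
Each panel plots one gene, with the replicate on the x axis and CPM on the y axis. The line is the mean and the grey band 1 SD over the 4 libraries, cut at 0. *Cd74*, *H2-Aa*, *H2-Ab1* and *Ciita* were lowest in replicate 3, whereas *H2-Eb1* was highest in replicate 4 and *Cd1d1* was at 0 in replicates 1 and 4.

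By mean TPM the order was *Cd74* (617), *H2-Aa* (160 ± 77.3), *H2-Ab1* (109 ± 65.4), *H2-Eb1* (35.8 ± 39.1), *H2-DMa* (21.7), *Cd1d1* (6.44 ± 8.31), *H2-DMb1* (3.15) and *Ciita* (1.56). *Cd74* stood above *H2-Aa*, and *H2-DMa* above *Cd1d1*, in 4 of 4 libraries with a mean difference larger than its SD over libraries. The other 5 pairs of neighbours in this order kept it in 2 or 3 libraries only, and for these the mean difference was smaller than its SD. Without replicate 2 or replicate 4, and in CPM, 2 genes changed places.

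Relative to *H2-Ab1*, the genes differed in how far they kept their proportion. The log2 TPM ratio of *Ciita* to *H2-Ab1* was -6.07 ± 0.38 (SD, n = 4) and that of *H2-Aa* to *H2-Ab1* was 0.63 ± 0.64, while *H2-Ab1* alone had an SD of 1.01 in log2 TPM. The small SD for *Ciita* rests on as few as 6 counts. For *Cd74* the ratio was 2.42, 2.98, 0.82 and 2.38 in replicates 1 to 4, so that the invariant chain was less in excess in replicate 3. For *H2-Eb1* it was -2.77, -3.70, -1.45 and 0.01, lower in both libraries of the second experiment than in both of the first. For *H2-DMa* it was -4.52 in replicate 1 and -1.41 to -1.98 in the others. These ratios are a description of 4 libraries and carry no test.

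**Figure D2:**
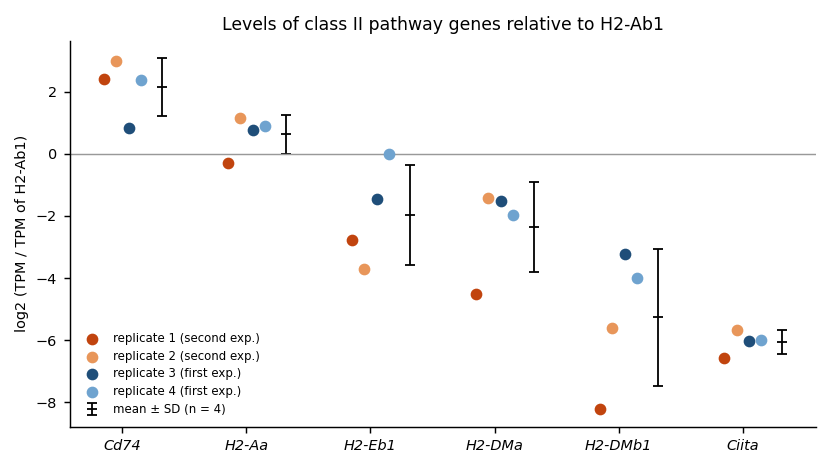
The y axis is the log2 ratio of a gene's TPM to that of *H2-Ab1*, one point per library, with the mean and SD (n = 4) beside the points. *Ciita* and *H2-Aa* stayed closest to a fixed ratio (SD 0.38 and 0.64), and *H2-Eb1* and *H2-DMb1* varied most (SD 1.61 and 2.21). The *H2-DMb1* ratio in replicate 1 rests on 2 counts, under the floor of 3, so its SD is uncertain.

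Between the experiments, the only labelled split of these libraries, no member passed the quasi-likelihood test of edgeR after Benjamini-Hochberg adjustment over the 11689 genes tested, those that reached 10 counts in 2 or more libraries. All 8 members passed that filter, 0 had an adjusted p under 0.05 and 0 an unadjusted p under 0.05, where 0% and 2.23% of all genes did. DESeq2 also called 0 of the 8, and 0.351% of all genes. The smallest p was that of *Cd74*, at 454.5 CPM in the second and 154 CPM in the first experiment, a log2 difference of 1.56 (standard error 0.95, unadjusted p = 0.148 and adjusted p = 0.99982 by edgeR). This difference was 0.73 without replicate 3 and 3.62 without replicate 4. *H2-Eb1* went the other way, with 10.4 CPM in the second and 35.4 CPM in the first (log2 difference -1.77, standard error 1.33), but without replicate 4 the difference was 0.20. The standard errors of the members ran from 0.78 to 2.91 log2 units, so differences of the size seen here could not be detected with 2 libraries against 2. Of the 28 genes tested among the 36 pathway genes in the table, 0 were called by edgeR or DESeq2 and 0 had an unadjusted p under 0.05 by edgeR.

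Libraries of one experiment also differed from each other. In the first experiment, 5 of the 8 members were over 1 log2 unit higher in replicate 4 than in replicate 3, as were 30.8% of all genes tested. The 5 were *Cd74* (2.93 log2 units), *H2-Eb1* (2.78), *H2-Aa* (1.47), *H2-Ab1* (1.36) and *Ciita* (1.22). In the second experiment, 3 members were over 1 log2 unit higher in replicate 2 than in replicate 1, against 34.2% of all genes. These were *Cd1d1*, *H2-DMa* (2.23) and *H2-DMb1*, the last on 10 and 2 counts. In the other direction, *Cd1d1* was lower by this margin in replicate 4 than in replicate 3, as were 18.8% of all genes, and *H2-Eb1* in replicate 2 than in replicate 1, as were 24.9%. Where each of the 4 libraries had to reach 10 counts, a limit added after the data were seen and met by 5 members, 4 of the 5 were higher in replicate 4 than 3 (17.4% of all such genes) and 1 of the 5 in replicate 2 than 1 (23.5%). None of the 8 members was higher by this margin in both experiments, which held for 19.1% of all genes. The median log2 difference of the members was 1.29 from replicate 3 to 4 and 0.36 from replicate 1 to 2, beside 0.09 and 0.14 for all genes. Replicate 3 was the lowest library for 4 members, and for 23.9% of all genes. With 1 library against 1, none of these differences has a test.

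**Figure D3:**
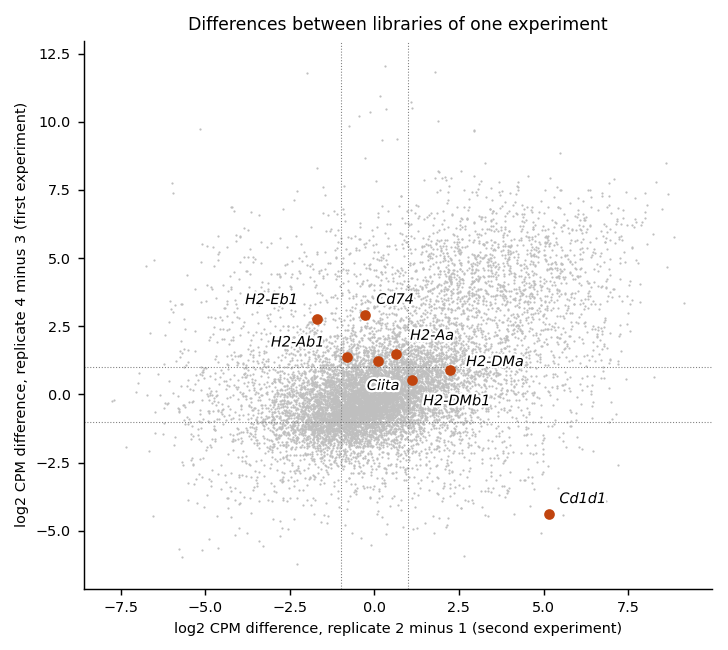
Each grey point is one of the 11689 genes tested, with the log2 CPM difference of replicate 2 minus 1 on the x axis and of replicate 4 minus 3 on the y axis, and dotted lines mark 1 log2 unit. No member in red lay beyond the dotted lines of 1 log2 unit on both axes in the upper right. *H2-Aa*, *H2-DMa*, *H2-DMb1* and *Ciita* were higher in replicate 2 than 1 and in replicate 4 than 3, but not by this margin in both. The position of *Cd1d1* depends on the prior count because it had 0 counts in replicates 1 and 4.

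Markers of other cells were measured beside the members. The 8 members summed to 661, 601, 109 and 483 CPM in replicates 1 to 4, of which *Cd74* made the larger part except in replicate 3. Of the 9 B cell markers 3 were above 3 counts in replicate 1, 5 in replicate 2, 1 in replicate 3 and 2 in replicate 4, and the sum was 78.7, 62.9, 1.97 and 4.22 CPM, led by *Cd79a*, part of the B cell receptor. *Ms4a1* and *Pax5* had 0 to 2 counts in every library, whereas *Cd79a* had 269 and 288 counts in replicates 1 and 2 and 0 in the others, and *Cd79b* had 113, 256, 2 and 0 counts in replicates 1 to 4. *Bank1* had 174 counts in replicate 1 and at most 3 elsewhere, and *Cr2* had 68 counts in replicate 2 and at most 5 elsewhere. Plasma cell markers, led by *Jchain*, gave 6371, 6651, 6.56 and 239 CPM, and all 5 were above 3 counts in both libraries of the second experiment. Of these markers, 3 B cell genes and all 5 plasma cell genes were tested between the experiments. By edgeR 0 of them were called, as were 0% of all genes. An unadjusted p under 0.05 by edgeR was reached by 2 and 3, beside 2.23% of all genes. DESeq2 called 1 and 2, beside 0.351% of all genes. *Cd79a*, *Cd79b*, *Mzb1* and *Tnfrsf17* reached the filter's 10 counts only in the second experiment, where they were high. Their p-values therefore give no support for a difference.

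Macrophage and monocyte markers (11 genes, led by *Lyz2*) summed to 87.6, 134, 46.4 and 177 CPM, with 6, 9, 9 and 9 of them above 3 counts in replicates 1 to 4. Only *Lyz2* and *Mertk* of this list had their lowest level in replicate 3, with *Mertk* at 26.3, 60.4, 0 and 30.5 CPM. *C1qc* was highest there (0, 3.02, 15.1 and 14.1 CPM). *C1qb* and *Adgre1* were higher in replicates 3 and 4 than in replicates 1 and 2. The dendritic cell list summed to 43.7, 9.93, 12.7 and 36.0 CPM, led by *Itgax*. Of its 8 genes, *Flt3*, *Clec9a*, *Batf3* and *Siglech* had 0 counts in all 4 libraries, while *Zbtb46* had 133, 0, 2 and 3 counts and *Xcr1* had 88, 2, 30 and 26 counts in replicates 1 to 4. The 22 epithelial markers, led by *Lyz1* of Paneth cells, had at least 21 genes above 3 counts in each library. Their lowest sum, like that of the B cell, plasma cell, macrophage, ILC3, and granulocyte and mast cell lists, was in replicate 3, where *Cd74*, *H2-Aa*, *H2-Ab1* and *Ciita* were lowest too. In replicate 1, however, *Cd74* and *H2-Ab1* were at their highest while the epithelial sum was the second lowest. The ILC3 list (4 genes, led by *Kit*) had sums of 13.4, 67.5, 8.97 and 45.9 CPM with *Ncr1* at 0 in all libraries. The stromal and endothelial list (6 genes, led by *Pecam1*) had 26.6 to 174 CPM, and the granulocyte and mast cell list (7 genes, led by *Prg2*) had 0.437 to 65.1 CPM with *Mcpt1*, *Mcpt2*, *S100a8* and *S100a9* at 0. The part of any of these cells in the class II and CD1d counts was not tested.

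**Figure D4:**
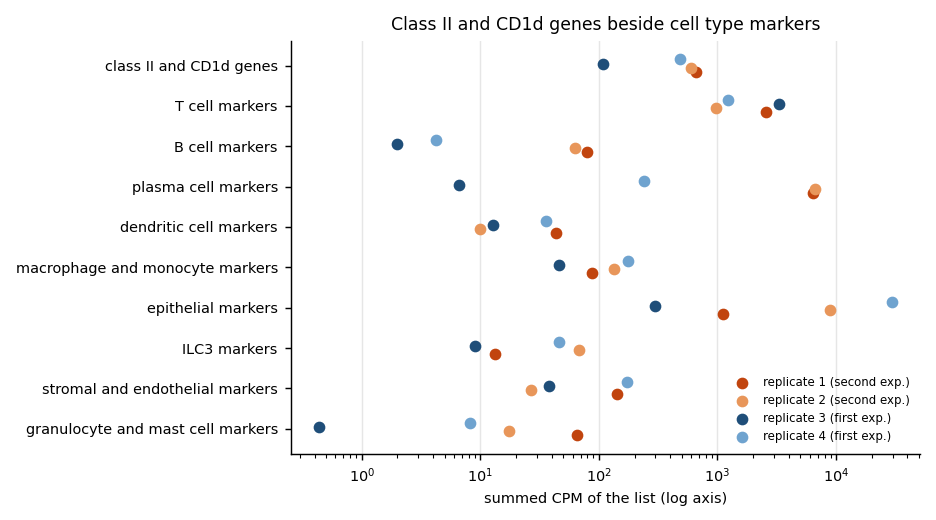
The x axis is the summed CPM of each list on a log scale, one point per library. The members spanned 109 to 661 CPM, with replicate 3 apart from the other libraries, whereas the T cell markers were highest in replicate 3 and the plasma cell markers stood at 6371 and 6651 CPM in the second experiment and at 6.56 and 239 CPM in the first.

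The genes whose pattern over the 4 libraries was most like the median of the members, by the root mean square distance of centred log2 CPM among 8027 genes outside the lists that had 10 or more counts in every library, were *Luzp1*, *Stard5*, *Mtrf1l*, *Trappc3* and *Bloc1s2*. Their distances were 0.06 to 0.12 log2 units, against a median of 0.88 for all these genes. *Luzp1* had 74.6, 112, 41.3 and 96.6 CPM in replicates 1 to 4. For *Cd1d1* alone the nearest were *Cenpx*, *Tfe3*, *Tmem50b*, *Zscan21* and *Ptpn3*, at distances of 0.97 to 1.05, against a median of 2.48 for all these genes. These distances cannot be set against those above, since the genes compared had 10 or more counts in every library and *Cd1d1* had 0 in 2 of them. *Cenpx* had 1.97, 31.3, 21 and 4.47 CPM. Likeness over 4 libraries is a description and carries no test.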

How the data were processed

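Bulk RNA-seq of 4 SI-LP NKT cell samples was analysed. The authors deposited raw counts per gene, made per the file headers with featureCounts 1.6.4 from read pairs, using primary alignments on exons of an mm10 RefSeq annotation without regard to strand; the methods name HISAT2 and GRCm39, the submitters' processing notes RSEM, Bowtie2 and GRCm38.p6, and which aligner made this table is not given in the sources used here. Since all 8 members overlap their GRCm38.p6 RefSeq position, coordinates follow GRCm38. Deposited gene lengths, which are an other kind of value and not a measurement, served for TPM. The table has 6 library columns, and 2 that match no sample label were not used.

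CPM used edgeR 4.0.16 TMM factors, and log2 CPM a prior count of 2. Genes that reached 10 counts in 2 or more libraries were fitted with edgeR's quasi-likelihood test, second against first experiment, which was tested on simulated data. DESeq2 1.42.0, median-of-ratios factors, library size alone, other count filters, a prior count of 0.5, leaving out *Rn45s* and leaving out each replicate were alternatives (R 4.3.3, Python 3.11.15). Named genes were the members, the pathway lists, the leading and undetected marker genes and the 5 nearest profiles. Some listed genes are not reported here. *Ms4a1*, *Pax5*, *Cd79b*, *Bank1*, *Cr2*, *Mzb1*, *Tnfrsf17*, *Zbtb46*, *Xcr1*, *Mertk*, *C1qb*, *C1qc* and *Adgre1* were named after their values were seen. The members and lists were chosen with earlier results of these data known. P-values measure only the spread between these samples, which may be technical.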

Additional observations from a re-analysis of the deposited data

Results flagged for a closer look

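The 52 results examined for a library far from the other 3 were all members, pathway genes and summed marker lists with any counts. Of these, 5 stood out, where chance gives about 2.6 for continuous values. A gene with counts in 1 library alone has a gap of the whole range whatever its count. The expected number therefore does not apply to such genes. The gap of the farthest library was 0.87 of the whole range for *H2-Eb2*, with 3.37 CPM in replicate 1. It was 1 for *H2-Ob* and for *Cd86*, each with 1.09 CPM in replicate 3 and 0 in the others. It was also 1 for *Cd1d2*, with 0.974 CPM in replicate 2, and for *Cd40*, with 0.141 CPM in replicate 1. These rest on 24, 5, 5, 10 and 1 counts in the order given. None of the 8 members was among them.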

How the results depend on the processing

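The summed level of the members (464 CPM) and each member's mean moved by less than 1 SD with library size alone, with median-of-ratios factors and with scaling that leaves out *Rn45s*, and without each replicate in turn the sum ran from 398 to 582 CPM. No member was called between the experiments under any alternative. Over all genes, edgeR called 0 (261 at an unadjusted p under 0.05), DESeq2 41 and edgeR with no low-count filter 60, and leaving out one replicate gave 0 to 85, with 7 without replicate 3 and 85 without replicate 4; the cause was not tested. With one replicate left out, the lone sample of that experiment is assumed to vary like the others. The log2 difference between experiments turned sign for *H2-Aa* without replicate 3 (range with one replicate left out -0.006 to 1.43), for *H2-Eb1* without replicate 4 (-2.89 to 0.20), for *H2-DMa* without replicate 2 or 3 (-1.34 to 0.96; -0.16 without replicate 3) and for *Cd1d1* without replicate 4 (-0.25 to 1.78, values that depend on the prior count). The difference kept its sign for *H2-Ab1* (0.47 to 1.79), *Cd74* (0.73 to 3.62) and *Ciita* (0.28 to 1.63), lowest without replicate 3 and highest without replicate 4. *Cd1d1* without replicate 2 or 3 and *H2-DMb1* without replicate 2 or 4 fell under the count filter and have no value. In the order by TPM, 2 genes changed places with CPM, and 0 to 2 with one replicate left out. Summed epithelial markers averaged 9962 CPM and 3441 without replicate 4, the library in which *Lyz1* alone had 20926 CPM. The number of members higher in replicate 4 than 3 was 5, or 6 with library size alone. No paired analysis was possible because there is a single condition and the experiments share no replicate number. At this depth *Cd1d1* in replicates 1 and 4, *H2-DMb1* in replicate 1 and *H2-Ea* in every library have only an upper limit. The same holds for the other class II paralogs in the libraries where they had at most 3 counts.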

Other observations

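Co-stimulatory genes of antigen-presenting cells had few counts. *Cd80* had 17 and 15 counts in replicates 1 and 2 and 0 in replicates 3 and 4, *Cd86* had 5 counts in replicate 3 alone, and *Cd40* had 1 count in replicate 1 alone. Endosomal genes of class II processing were above the floor in every library. *Ctss*, the protease that trims the invariant chain, had 67.3, 9.15, 26.5 and 39.7 CPM in replicates 1 to 4, and *Sppl2a*, which cleaves its last fragment in the membrane, had 132, 142, 79.0 and 66.8 CPM. *Ifi30*, a reductase that IFN-γ induces, had 6.47, 37.2, 14.0 and 26.1 CPM, and *Lgmn*, an endosomal protease, had 4.08, 7.59, 2.19 and 33.3 CPM. *Ctsl*, another endosomal protease, had 3.09 to 14.1 CPM. Of the ubiquitin ligases that remove surface class II, *Marchf1* had 7, 0, 0 and 2 counts and *Marchf8* 116, 612, 2 and 186.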
